A study of Arabidopsis thaliana with 18 samples.

Results

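The transcriptomic effect of TSA, the difference between explants cultured on ET and on E0 medium of the same age, was compared between the 5th and the 10th day of culture. The quantity tested for each gene was ET against E0 at 10 d minus ET against E0 at 5 d, which equals the day change on ET minus the day change on E0. A higher value therefore means that the TSA effect moved upwards between the days, and the day changes show in which medium the transcript level moved. Of the 18 libraries in the series, the 12 of E0 and ET were compared, 3 per combination of medium and day and named a, b and c. Every explant was an immature zygotic embryo (IZE) of the Columbia-0 genotype at the cotyledonary stage. E0 is the basal medium with neither TSA nor auxin, on which explants grow into seedlings. ET is the same medium with 1 µM TSA, an inducer of somatic embryogenesis (SE) in these explants. The E0 and ET explants were sampled after 5 d and after 10 d. Per the study's methods, each biological replicate was RNA from a pool of whole explants, and fewer explants were pooled at 10 d than at 5 d, so pool size and age cannot be told apart within a medium.

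TSA (trichostatin A) inhibits histone deacetylases, the enzymes that remove acetyl groups from histone tails, and acetylated chromatin is in general more accessible to transcription factors. An IZE placed on a medium without an inducer completes its development and germinates: it uses up its reserves, greens, and forms root hairs. On an inducing medium, cells of the cotyledons divide instead and form somatic embryos under regulators of zygotic embryogenesis, such as the LEAFY COTYLEDON group, and with auxin as the central hormone. A change of the TSA effect with age can thus arise on either side of the comparison, in the induced explant or in the growing seedling.

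The 12 libraries held between 9098758 and 58364735 counts, and 3 counts, taken as the detection floor of a library, correspond to 0.0509 to 0.329 CPM (counts scaled to a common library size). Library ET 5 d c stood apart, with 3.37% of its counts on structural RNA genes, against at most 0.645% in the other 11, and the highest share of chloroplast transcripts, 11.7% against 4.88% to 8.17%. The shallowest were E0 5 d c with 9098758 counts, ET 5 d b with 9653802, E0 5 d b with 10679746 and ET 10 d a with 11582222. In tissue RNA, fewer cells of a type and less RNA per cell cannot be told apart, which holds for every value given here.

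The TSA effect differed between the days for 3356 of 23539 genes tested, 14.3%, at an adjusted p under 0.05 by edgeR's quasi-likelihood test. It was higher at 10 d for 1798 DEGs (7.64% of the genes tested) and lower for 1558 (6.62%). The median absolute difference of the DEGs was 1.67 on the log2 scale, and 1363 differed by at least 2. Over all genes tested the median difference was -0.02, a value that the scaling itself centres. Among the DEGs, 2391 reached 10 CPM in the group with the highest mean, and 314 lay at the detection floor in at least 1 of the 4 groups, most often in ET at 5 d (232 DEGs).

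The level moved on ET alone for 1386 of the 3356 DEGs, 41.3%, and on E0 alone for 1124, 33.5%. These counts take the day change of each medium as called at an adjusted p under 0.05, which held for 20.5% of all genes on ET (12% rising and 8.53% falling) and 17.5% on E0 (10.4% rising and 7.10% falling). On ET alone, 827 DEGs rose relative to E0 and 559 fell, whereas on E0 alone the split was 528 higher and 596 lower. In 423 DEGs the level moved in both media in opposite directions, in 97 it moved the same way but further in one medium, and in 326 neither day change passed the test by itself. The larger of both absolute day changes was on ET for 1846 DEGs (55.0%) and on E0 for 1510. The order of both media turned without library ET 10 d c (815 on ET alone against 1017 on E0 alone), without ET 5 d c (1012 against 1180) and without ET 10 d a (941 against 950), and it was level at 1027 each when counts were thinned to the smallest library. The count on E0 alone fell to 707 without E0 10 d c and to 720 without E0 5 d c. The opposite changes numbered between 253 and 278 when E0 5 d a, b or c, E0 10 d c or ET 10 d a was left out, and the changes in the same direction 47 to 63 without these 5 libraries or E0 10 d a.

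**Figure D1:**
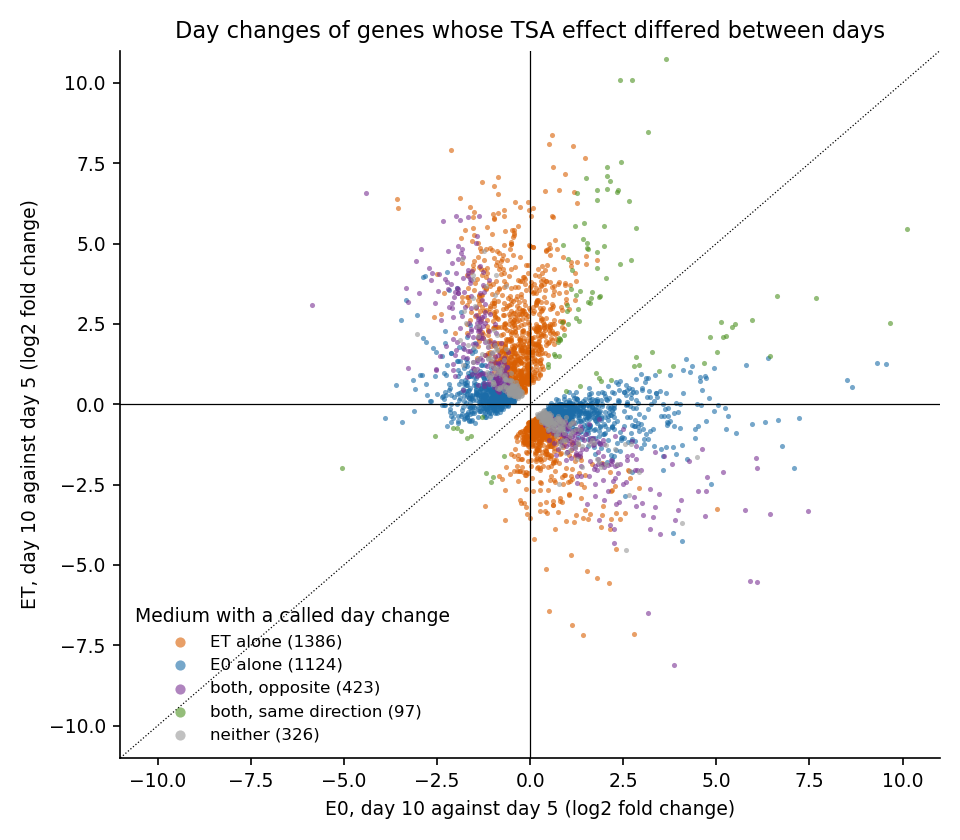
Each point is 1 of the 3356 genes whose TSA effect differed between the days, with the log2 fold change from 5 d to 10 d on E0 on the x axis and on ET on the y axis, coloured by the medium in which the day change was called. The 1386 genes called on ET alone lie along the vertical axis and the 1124 called on E0 alone along the horizontal axis. The dotted diagonal marks equal change, from which the plotted genes differ by at least 0.479 on the log2 scale, since the difference itself chose them.

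Over all genes tested, a TSA effect was called for 45.3% at 5 d (23.8% higher and 21.5% lower on ET) and 38.0% at 10 d (18% higher and 20.0% lower). Among the DEGs it was called at 5 d alone for 859 DEGs that were higher on ET and for 480 that were lower. At 10 d alone it was called for 505 higher and 349 lower DEGs. Where both days had a called effect of the same sign, it was smaller at 10 d in 636 DEGs and larger in 176. The direction turned in 317, from lower to higher on ET in 160 and from higher to lower in 157. Without library E0 10 d c the DEGs with an effect at 10 d alone numbered 320 higher and 229 lower, without ET 10 d c 325 were higher, and without ET 10 d a 230 were lower. The effects of the same sign that became smaller numbered 402 without ET 10 d c, and those that became larger 97, 109 and 99 without E0 5 d a, b and c.

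**Figure D2:**
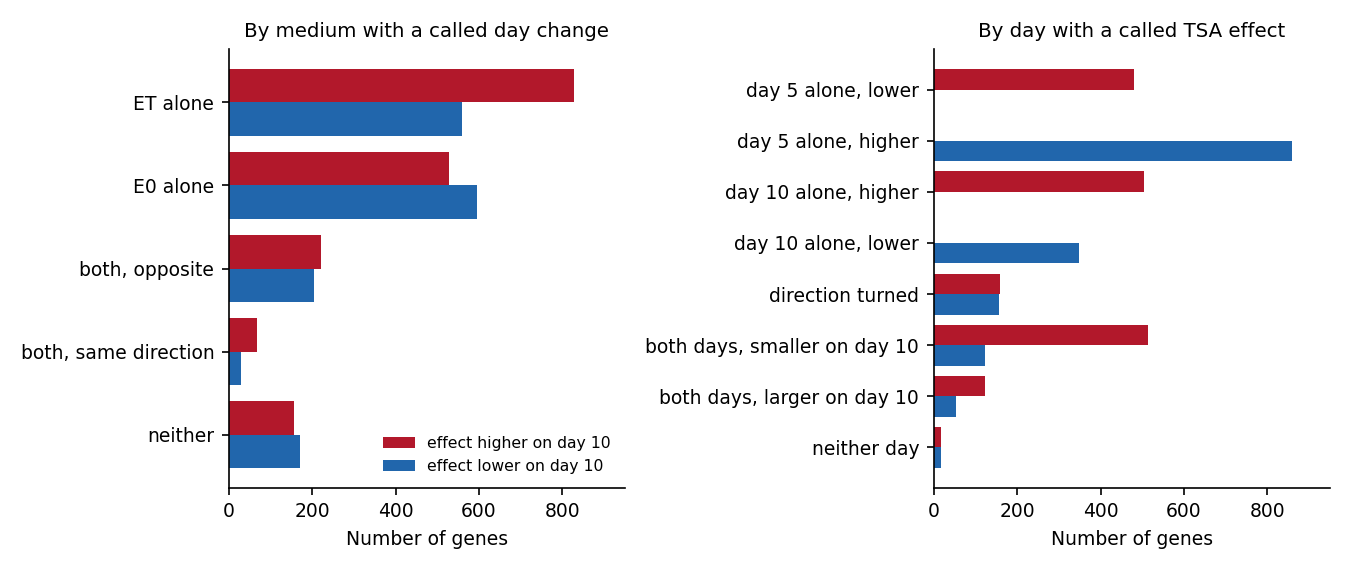
Bars give the number of genes whose TSA effect was higher (red) or lower (blue) at 10 d, sorted on the left by the medium with a called day change and on the right by the day with a called TSA effect. The longest bars are the 827 genes that rose on ET alone and the 859 whose higher level on ET was called at 5 d alone.

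Root hair genes had the largest absolute median difference of the gene lists drawn up with the design. Of 22 tested members, 17 had a higher TSA effect at 10 d, and none a lower one, against 7.64% of all genes. Their transcripts were abundant on E0 at 5 d and close to absent on ET, and between the days 12 members fell on E0 and none rose, whereas 12 rose on ET and 1 fell. Of all genes, 7.10% fell and 10.4% rose on E0, and 12% rose and 8.53% fell on ET. A lower level on ET was called for 21 members at 5 d and for 18 at 10 d, beside 21.5% and 20.0% of all genes. The count of none with a lower effect became 1 without library ET 5 d a, with the DESeq2 Wald test and when E0 and ET were fitted alone. The median TSA effect over the list was -6.47 at 5 d and -2.52 at 10 d on the log2 scale, the median day change was -1.58 on E0 and 2.26 on ET, and the median difference was 3.96, or 3.42 with the 2 genes that lay at the floor set to it. In 8 of the 17 DEGs the opposite day changes were called in both media, in 4 on ET alone, in 3 on E0 alone and in 2 in neither. The members that did not pass the test were the regulators of epidermal cell fate *GL2*, *WER* and *CPC* and the early hair-cell factors *RHD6* and *RSL1*.

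The following promoters, 250 bases upstream of the annotated start in the RefSeq annotation of TAIR10.1, belong to 3 of these genes and are shown because they carry the core letters of the root hair element, a motif known from promoters of hair-cell genes. The capitals mark GCACGA or GCACGT or TCACGA or TCACGT on either strand.
LRX1 (chr1:4069742-4069991, forward strand): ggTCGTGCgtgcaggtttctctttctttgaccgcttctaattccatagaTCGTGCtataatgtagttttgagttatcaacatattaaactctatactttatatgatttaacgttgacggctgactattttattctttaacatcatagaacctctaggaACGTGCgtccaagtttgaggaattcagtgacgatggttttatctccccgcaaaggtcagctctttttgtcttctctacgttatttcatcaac
RHS13 (chr4:993040-993289, reverse strand): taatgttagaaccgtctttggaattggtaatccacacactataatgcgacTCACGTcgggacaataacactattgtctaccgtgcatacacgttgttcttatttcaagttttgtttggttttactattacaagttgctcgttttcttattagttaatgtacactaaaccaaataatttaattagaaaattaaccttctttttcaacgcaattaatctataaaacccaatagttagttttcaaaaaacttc
RHS18 (chr5:7426060-7426309, forward strand): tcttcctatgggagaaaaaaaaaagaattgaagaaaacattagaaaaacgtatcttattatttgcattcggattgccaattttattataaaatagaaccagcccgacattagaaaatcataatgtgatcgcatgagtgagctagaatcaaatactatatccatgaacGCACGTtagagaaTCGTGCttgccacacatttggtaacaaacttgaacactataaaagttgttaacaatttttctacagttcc
These letters occurred in this window in 11 of the 22 listed genes, all among the 17 DEGs, and in 18.4% of the promoters of 21879 protein-coding nuclear genes tested. They were also present in 6 of 9 storage protein genes and 3 of 7 oil body genes. A match is a description of the sequence, and no binding was measured.

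*LRX1* (AT1G12040), which encodes a leucine-rich repeat extensin of the root hair wall, measured 65.7, 88.4 and 84.6 CPM in E0 5 d a, b and c and 18.6, 19.5 and 21.8 CPM at 10 d. On ET it measured 0.0479, 0.108 and 0.108 CPM at 5 d and 6.75, 1.19 and 6.58 CPM at 10 d. No libraries of the 4 groups overlapped, E0 was above ET on both days, and ET 10 d b was the lowest library of its group. The level fell by 1.99 on E0 and rose by 5.84 on ET on the log2 scale, a difference of 7.83 ± 0.88 (SE, adjusted p = 5.21e-05, edgeR, 3 libraries per group). ET 5 d a and b lay below their floors of 0.0718 and 0.323 CPM, so the sizes of this rise and difference rest on few counts.

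*RHS13* (AT4G02270), a gene of the ROOT HAIR SPECIFIC group, measured 114, 88.0 and 81.8 CPM on E0 at 5 d, 23.2, 18.7 and 31.7 CPM at 10 d, 0.0958, 0.645 and 0.488 CPM on ET at 5 d and 5.57, 1.06 and 5.68 CPM at 10 d. *RHS18* (AT5G22410), of the same group, measured 94.7, 83.5 and 82.7 CPM on E0 at 5 d, 30.7, 21.4 and 24.2 CPM at 10 d, 0.0718, 0.538 and 0.325 CPM on ET at 5 d and 4.11, 1.01 and 3.36 CPM at 10 d. In both genes the 4 groups were again separate, in the same order as for *LRX1*. The differences were 5.53 ± 0.89 for *RHS13* (adjusted p = 0.000833) and 5.28 ± 0.87 for *RHS18* (adjusted p = 0.000902), and *RHS12*, for a pectin methylesterase-type protein, differed by 6.65 ± 0.91 (adjusted p = 0.00025). Upstream of these, the transcription factor genes *RSL4* and *RSL2*, which drive hair outgrowth, differed by 3.15 ± 0.75 (adjusted p = 0.0101) and 5.05 ± 1.18 (adjusted p = 0.00933). *RSL4* fell on E0 by 1.49, with 1.67 (adjusted p = 0.0601) on ET, and *RSL2* rose on ET by 4.21. In library ET 10 d b the level was the lowest of its group in 15 of the 17 DEGs, and all 17 were called without it.

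Of 6 tested extensin genes, a list drawn up after values were seen, 4 were DEGs, and all 4 fell on E0 and rose on ET. *EXT12* (AT4G13390), for a structural wall glycoprotein, measured 140, 177 and 189 CPM on E0 at 5 d, 31.7, 35.6 and 36.3 CPM at 10 d, 0.287, 0.861 and 0.352 CPM on ET at 5 d and 6.39, 2.07 and 9.39 CPM at 10 d. Its groups did not overlap, and ET 10 d b was again lowest. The difference was 6.19 ± 0.77 (adjusted p = 0.000128). The core letters of the root hair element were present in the promoter window of all 4 DEGs, beside 18.4% of the 21879 promoters searched. Among the 6 extensin genes, the share of exon 50-mers that also occur elsewhere in the genome ranges from 0% (*EXT12*) to 40.9% (*EXT6*). A gene on the other strand overlaps 29.2% of the exon sequence of *EXT3* and 26.5% of that of *EXT10*. Among 53 expansin and xyloglucan endotransglucosylase/hydrolase (XTH) genes, whose products loosen walls, 18 had a higher TSA effect at 10 d and 2 a lower one. The shares of all genes were 7.64% and 6.62%, and the median difference of the list was 0.68. The higher members numbered 10 without library ET 10 d c, and the lower ones 1 without E0 5 d b or c, E0 10 d a or ET 10 d a. *XTH26* differed by 5.78 ± 0.91 and *XTH13* by 4.75 ± 0.83. *XTH7* went the other way, at -3.35 ± 0.60: it rose in both media, by 5.96 on E0 and 2.62 on ET. The fasciclin-like arabinogalactan protein gene *FLA6* was at the floor on ET at 5 d, at least 306-fold lower than on E0, with 2.19, 0.353 and 0.979 CPM on ET at 10 d (adjusted p of the difference 0.00103).

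**Figure D3:**
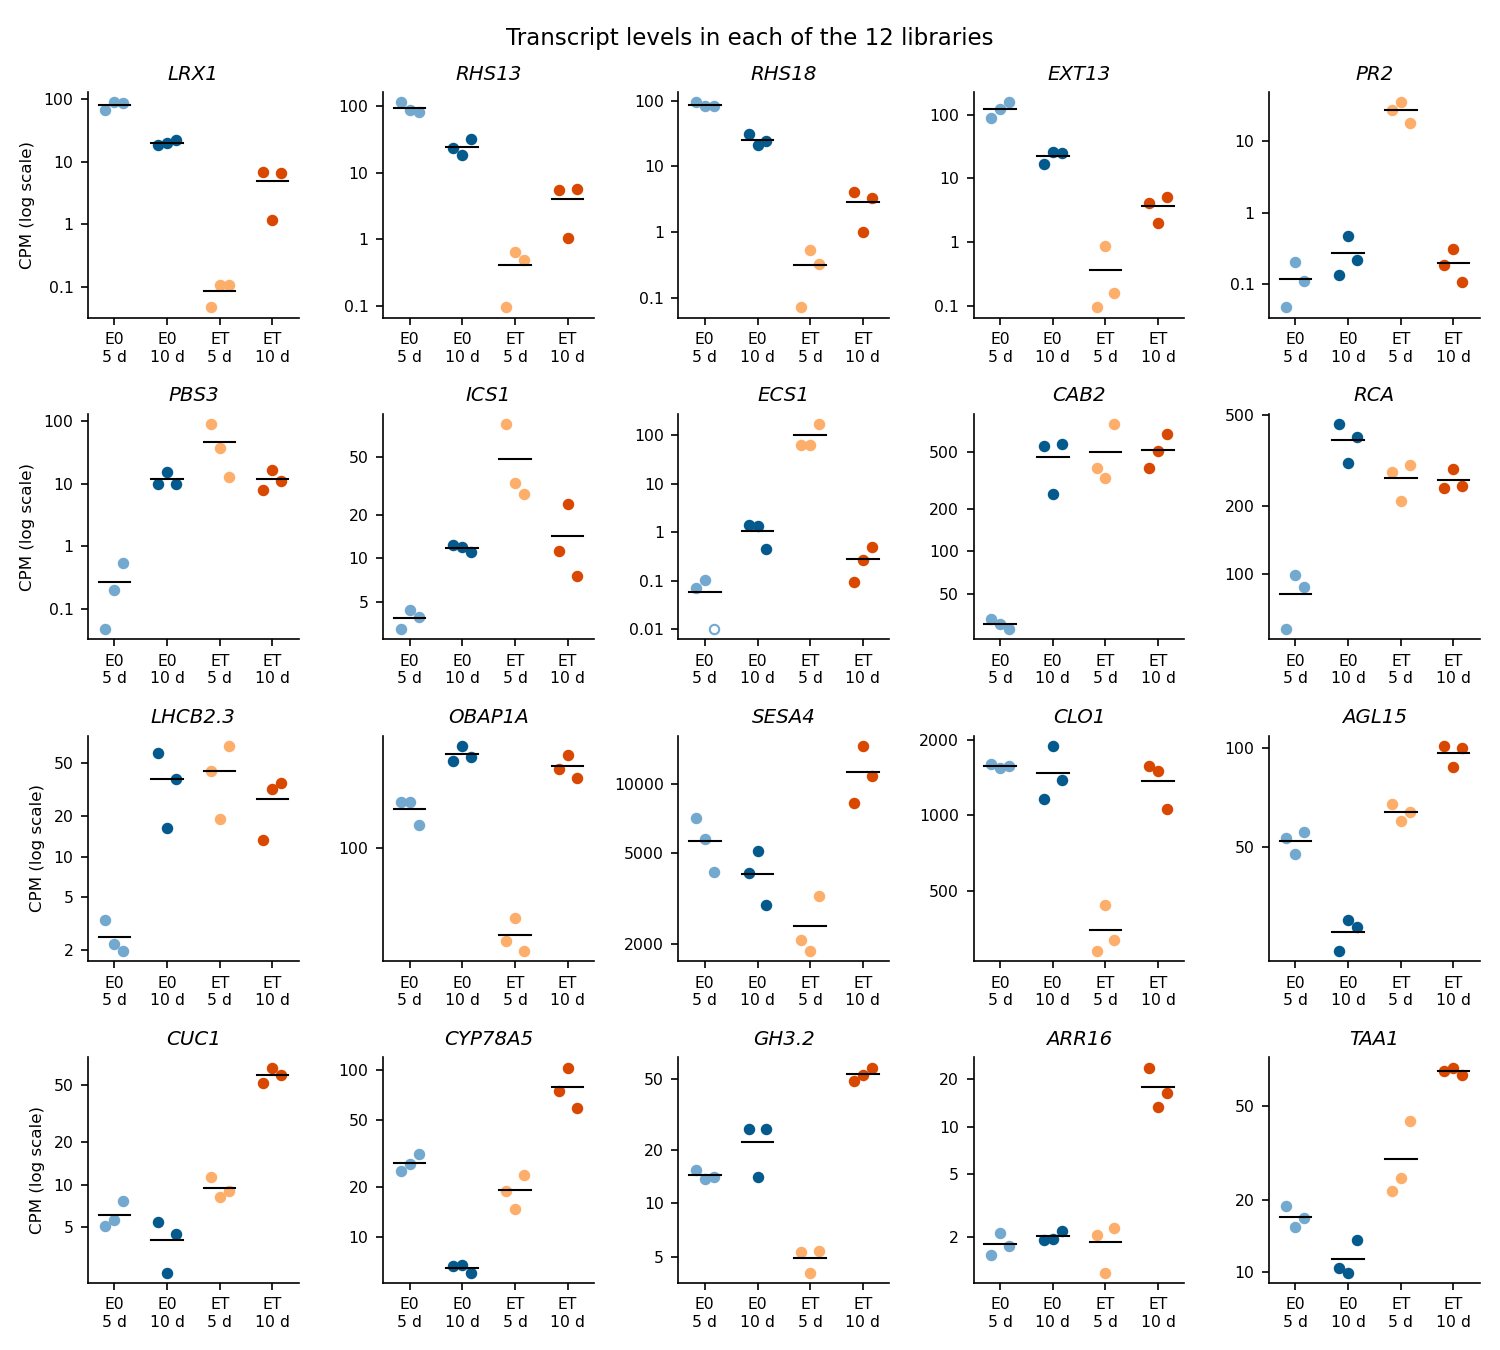
Points are the CPM of libraries a, b and c of each of the 4 groups on a log axis for 20 genes, lines mark group means, and open points at 0.01 stand for 0 counts. In *LRX1*, *RHS13*, *RHS18* and *EXT13* the E0 libraries fall and the ET libraries rise. In *PR2* the ET libraries fall, and in *ICS1* and *ECS1* the ET libraries fall and the E0 libraries rise. In *PBS3* the E0 libraries rise, and the ET libraries overlap between the days while their mean falls. In *CAB2*, *RCA* and *LHCB2.3* the E0 libraries rise.

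Genes of salicylic acid (SA) synthesis and response had lower TSA effects at 10 d more often than higher ones. SA is the hormone of defence against biotrophic pathogens, and *ICS1*, *EDS5* and *PBS3* encode the isochorismate route to it. Of 25 tested members, 13 had a lower TSA effect at 10 d, against 6.62% of all genes. A higher one was called for 1, *ICS2*, against 7.64%. At 5 d 13 members were higher on ET and 6 lower, beside 23.8% and 21.5% of all genes. At 10 d 5 were higher and 11 lower, beside 18% and 20.0%. The median difference was -2.34, or -1.42 with the 4 genes that had a group at the floor set to it, and the median day change was -0.99 on ET and 1.12 on E0. The 14 DEGs moved on ET alone in 6, on E0 alone in 4, in opposite directions in 3 and in the same direction in 1.

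*ICS1* (AT1G74710), for the isochorismate synthase of the SA pathway, measured 3.28, 4.45 and 3.95 CPM on E0 at 5 d and 12.3, 12 and 11 CPM at 10 d. On ET it measured 83.8, 32.8 and 27.8 CPM at 5 d and 11.2, 23.7 and 7.58 CPM at 10 d. The days were separate within each medium, and the media overlapped at 10 d. The TSA effect was 3.65 at 5 d and 0.27 (adjusted p = 0.635) at 10 d, a difference of -3.39 ± 0.57 (adjusted p = 0.00104), and the level fell on ET by 1.77 and rose on E0 by 1.62.

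*PBS3* (AT5G13320), for the enzyme that joins glutamate to isochorismate, measured 0.0475, 0.202 and 0.549 CPM on E0 at 5 d, 9.98, 15.4 and 9.84 CPM at 10 d, 90.6, 37.5 and 12.9 CPM on ET at 5 d and 7.94, 16.7 and 11 CPM at 10 d. The E0 libraries at 5 d were below all others, and ET 5 d c lay within the range of ET at 10 d. The difference was -8.07 ± 1.09 (adjusted p = 0.000229), with the larger day change on E0 (6.09 against -1.98 on ET). E0 5 d a and b lay below their floors of 0.0713 and 0.303 CPM, so the sizes of the E0 change and of the difference rest on few counts. *PR2* (AT3G57260), a glucanase gene used as a marker of SA response, measured 27.4, 34.7 and 17.9 CPM on ET at 5 d and at most 0.468 CPM in any library of the other 3 groups. It was at the floor on E0 at 5 d, so ET was at least 114-fold higher there, and the day change was called on ET alone (adjusted p of the difference 0.000198).

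The regulators of the pathway differed among themselves. *EDS1*, a lipase-like hub of immune signalling, fell on ET by 2.41, and its TSA effect turned from 1.13 to -1.55. *WRKY70* and *CBP60G*, transcription factor genes that act in SA signalling, kept a higher level on ET on both days, and their effect shrank from 5.28 to 2.44 and from 4.96 to 2.07 as both rose on E0, by 1.85 and 2.76. *NPR1*, the SA receptor, did not pass the test (difference 0.00 ± 0.28, adjusted p = 0.998). Library ET 5 d a was the highest of its group in 11 of the 13 DEGs with a lower effect and ET 5 d c the lowest in 11, and 16 members were lower without ET 5 d c and 12 without ET 10 d b.

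The largest falls on ET alone included genes that are known for other defence traits or are not characterized. *AT2G25510*, for an uncharacterized protein, measured 578, 594 and 344 CPM on ET at 5 d and 2.37, 7.36 and 3.08 CPM at 10 d, against at most 2.34 CPM on E0. *AT5G42530*, also uncharacterized, fell on ET by 5.20, from a mean of 915 CPM to 24.8 CPM. The ET libraries of both genes were separate between the days, and the differences were -7.99 ± 1.04 (adjusted p = 0.000173) and -6.72 ± 1.03 (adjusted p = 0.000566). *AT5G10760*, for an aspartyl protease family protein, differed by -6.93 ± 0.95 (adjusted p = 0.000255). *ECS1* (AT1G31580) moved in both media (adjusted p of the difference 2.14e-05), with 63.9, 63.1 and 171 CPM on ET at 5 d, 0.0913, 0.265 and 0.498 CPM at 10 d and 1.39, 1.34 and 0.441 CPM on E0 at 10 d. On E0 at 5 d it was at the floor, and ET was at least 423-fold higher.

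**Figure D4:**
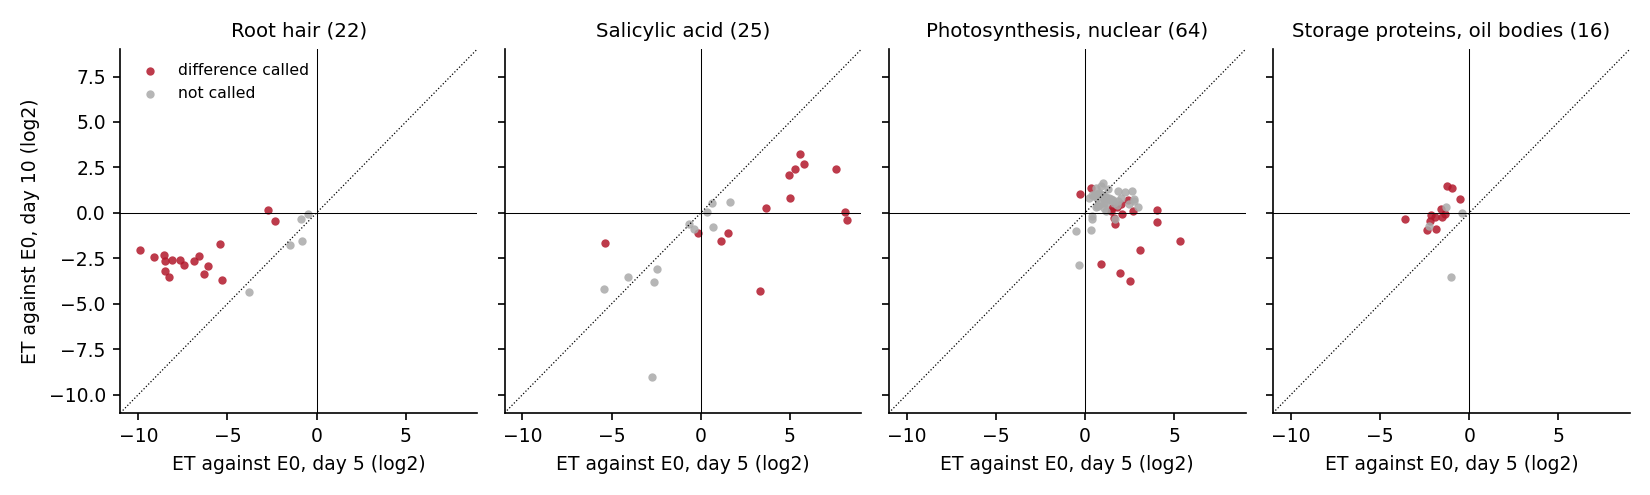
Each point is a tested gene of 1 list, with its TSA effect (log2 fold change of ET against E0) at 5 d on the x axis and at 10 d on the y axis, and red points passed the test of the difference. Root hair genes lie mostly above the dotted line of equal effect in the lower left, genes of SA and of photosynthesis lie mostly below it, and storage protein and oil body genes lie mostly above it.

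The called day changes of photosynthesis genes were mostly on E0. Of 64 tested nuclear genes for photosystems, light harvesting and Rubisco, 16 had a lower TSA effect at 10 d and 2 a higher one, beside 6.62% and 7.64% of all genes. In 14 of these 18 DEGs the day change was called on E0 alone. At 5 d, 44 members were higher on ET and none lower, and at 10 d 17 were higher and 6 lower, beside 23.8% and 21.5% of all genes at 5 d and 18% and 20.0% at 10 d. On E0, 14 members rose and 4 fell between the days, beside 10.4% and 7.10% of all genes, and on ET 1 fell, beside 8.53%. The median difference was -0.80, with median day changes of 0.40 on E0 and -0.42 on ET.

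*CAB2* (AT1G29920), for a chlorophyll a/b-binding protein, measured 33.3, 30.6 and 28.1 CPM on E0 at 5 d and 553, 252 and 576 CPM at 10 d. On ET it measured 385, 331 and 795 CPM at 5 d and 386, 513 and 670 CPM at 10 d. The 3 libraries of E0 at 5 d were below all others, and the other 3 groups overlapped. The TSA effect was 4.04 at 5 d and 0.18 (adjusted p = 0.749) at 10 d, a difference of -3.85 ± 0.56 (adjusted p = 0.000371). Of the exon sequence of *CAB2*, 20.5% of 50-mers also occur elsewhere in the genome, which can shift counts between copies of the family. For *CAB1*, of the same family, this share is 17%, and its difference did not pass the test (adjusted p = 0.517, edgeR).

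*RCA* (AT2G39730), for Rubisco activase, measured 57.5, 99.0 and 88.4 CPM on E0 at 5 d, 458, 309 and 402 CPM at 10 d, 282, 210 and 304 CPM on ET at 5 d and 240, 291 and 245 CPM at 10 d. It rose on E0 by 2.26, with -0.04 (adjusted p = 0.926) on ET, and its TSA effect turned from higher to lower, to -0.59 at 10 d. The E0 libraries lay below every ET library at 5 d and above every one at 10 d. *LHCB2.3* differed by -4.55 ± 0.71 (adjusted p = 0.000665), but 40.6% of its exon sequence overlaps a gene on the other strand, and the strand setting of the counts is not given in the sources used here. Of the genes with a higher effect, *PRK*, for phosphoribulokinase of the Calvin cycle, fell on E0 by 0.78 and differed by 1.29 ± 0.27 (adjusted p = 0.00425). Library ET 5 d c was the highest of its group in all 16 DEGs with a lower effect, and E0 10 d b the lowest of its group in 14. The count of 2 higher members was 1 without 10 of the 12 libraries. The count of 16 fell to 8 without ET 5 d c and to 9 or 10 without E0 5 d a, b or c, E0 10 d a or c, or ET 10 d a or b.

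Of 114 chloroplast genome transcripts tested, 31 had a lower TSA effect at 10 d and none a higher one, with a median difference of -1.24. The shares of all genes were 6.62% lower and 7.64% higher. The day changes were called as a rise on E0 for 24 members and as a fall on ET for 14, beside 10.4% and 8.53% of all genes. Chloroplast transcripts made up 5.15% to 6.55% of counts on E0 at 5 d, 4.88% to 8.10% at 10 d, 7.43% to 11.7% on ET at 5 d and 6.04% to 8.17% at 10 d. Libraries were made from total RNA depleted of ribosomal RNA.

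Seed storage protein genes, which fill the reserves of the maturing embryo, moved on ET. Of 9 tested members, 6 had a higher TSA effect at 10 d and none a lower one, beside 7.64% and 6.62% of all genes. All 9 rose on ET between the days, with a median day change of 2.23, against 0.28 on E0, beside 12% of all genes rising on ET. The number of members lower on ET than on E0 went from 8 at 5 d to 1 at 10 d, beside 21.5% and 20.0% of all genes. The summed level was 85579 to 136861 CPM on E0 at 5 d, 113025 to 190781 CPM at 10 d, 22727 to 37298 CPM on ET at 5 d and 92632 to 137740 CPM at 10 d. ET at 5 d was below the other 3 groups, whose ranges overlapped. Of 7 oil body genes, 6 had a higher effect and none a lower one, beside the same shares of all genes. Without E0 5 d a, E0 10 d c or ET 5 d a, 3 were higher. A lower effect was called for 1 without ET 5 d a and also for 1 with the DESeq2 Wald test.

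The promoters of 3 of these genes, again 250 bases upstream of the start in the RefSeq annotation of TAIR10.1, are shown for the RY element, the letters CATGCA on either strand, which is known as the binding site of the B3 factors FUS3, LEC2 and ABI3. Capitals mark the matches, which overlap in *SESA4*.
SESA4 (chr4:13613346-13613595, forward strand): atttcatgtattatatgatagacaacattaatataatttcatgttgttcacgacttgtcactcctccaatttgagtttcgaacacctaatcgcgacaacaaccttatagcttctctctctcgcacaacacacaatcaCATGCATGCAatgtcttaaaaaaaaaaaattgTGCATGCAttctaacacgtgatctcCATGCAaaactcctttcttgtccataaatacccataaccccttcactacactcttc
OBAP1A (chr1:1629196-1629445, forward strand): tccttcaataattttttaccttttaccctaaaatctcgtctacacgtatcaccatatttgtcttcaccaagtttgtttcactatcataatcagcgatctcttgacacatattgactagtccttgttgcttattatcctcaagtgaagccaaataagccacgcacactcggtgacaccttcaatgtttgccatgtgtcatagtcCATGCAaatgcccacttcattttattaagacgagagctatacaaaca
CLO1 (chr4:13475372-13475621, reverse strand): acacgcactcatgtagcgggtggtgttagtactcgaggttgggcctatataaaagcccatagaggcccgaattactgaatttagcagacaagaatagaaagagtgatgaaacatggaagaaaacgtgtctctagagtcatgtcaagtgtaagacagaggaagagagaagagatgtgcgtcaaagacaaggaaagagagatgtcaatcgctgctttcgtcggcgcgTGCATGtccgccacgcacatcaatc
The RY letters occurred in the window of 8 of the 9 storage protein genes and 6 of the 7 oil body genes, and in 8.23% of the 21879 promoters searched.

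*SESA4* (AT4G27170), a 2S albumin gene, measured 7135, 5762 and 4116 CPM on E0 at 5 d and 4086, 5126 and 2954 CPM at 10 d. On ET it measured 2075, 1867 and 3229 CPM at 5 d and 8282, 14757 and 10826 CPM at 10 d, above every library of the other groups. Its TSA effect turned from -1.25 to 1.48, a difference of 2.72 ± 0.49 (adjusted p = 0.00181), and *SESA2*, of the same family, turned from -0.98 to 1.38 (adjusted p = 0.00496). *CRA1*, for a 12S cruciferin, rose on ET by 1.73 with -0.05 (adjusted p = 0.931) on E0, and differed by 1.78 ± 0.40 (adjusted p = 0.00748). *SESA1* did not pass the test (difference 0.40 ± 0.54, adjusted p = 0.679), as it rose in both media.

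*OBAP1A* (AT1G05510), for an oil body-associated protein, measured 249, 249 and 157 CPM on E0 at 5 d, 563, 757 and 602 CPM at 10 d, 15.9, 25.1 and 13.1 CPM on ET at 5 d and 482, 630 and 402 CPM at 10 d. It rose in both media, by 1.55 on E0 and 4.82 on ET, and ET overlapped E0 at 10 d after lying below it at 5 d (difference 3.26 ± 0.40, adjusted p = 0.000103). *CLO1* (AT4G26740), for the caleosin of seed oil bodies, measured 1602, 1543 and 1569 CPM on E0 at 5 d, 1163, 1890 and 1388 CPM at 10 d, 291, 443 and 320 CPM on ET at 5 d and 1564, 1507 and 1057 CPM at 10 d. ET at 5 d lay below the other libraries, which overlapped (difference 2.06 ± 0.36, adjusted p = 0.00133). Genes of oil mobilisation, which break these reserves down, went the other way in 5 of 19 members, beside 6.62% of all genes, with a median difference of -0.52.

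Regulators of embryogenesis had a higher TSA effect at 10 d in 6 of 18 tested members and a lower one in 1, *AGL18*, beside 7.64% and 6.62% of all genes. The level on E0 fell in 9 members and rose in 2, whereas on ET 6 rose and none fell. Of all genes, 7.10% fell and 10.4% rose on E0, and 12% rose and 8.53% fell on ET. *AGL15* (AT5G13790), for a MADS-box factor that promotes SE, measured 53.2, 47.8 and 55.6 CPM on E0 at 5 d, 24.3, 30.1 and 28.7 CPM at 10 d, 67.7, 60 and 63.7 CPM on ET at 5 d and 101, 87.2 and 100 CPM at 10 d. The 4 groups did not overlap, and both media moved, E0 by -0.92 and ET by 0.59. *bZIP67*, a partner of the LEC1-type factors in seed maturation, had the same course, with -0.90 on E0 and 0.45 on ET (difference 1.34 ± 0.17, adjusted p = 0.000128).

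*FUS3* (AT3G26790), for a B3 factor of the LEAFY COTYLEDON group, measured 144, 172 and 193 CPM on E0 at 5 d, 54.4, 59.8 and 57.2 CPM at 10 d, 365, 384 and 168 CPM on ET at 5 d and 403, 407 and 308 CPM at 10 d. The fall was on E0, by 1.57, with 0.28 (adjusted p = 0.506) on ET, and the effect grew from 0.85 to 2.70 (difference 1.85 ± 0.41, adjusted p = 0.00625). *NF-YB6*, the LEC1-LIKE subunit gene, and *ABI3*, for another B3 factor, also had their called day change on E0 alone, at -2.16 and -0.73. *EEL*, for a bZIP factor of seed maturation, moved on ET by 1.02 and turned from -0.75 to 0.73 (adjusted p = 0.000859). *LEC1*, *LEC2*, *BBM* and *MYB118* were higher on ET on both days, and the differences between the days, 0.73 ± 0.88, 0.75 ± 0.50, 0.39 ± 0.23 and 0.29 ± 0.55, did not pass the test (adjusted p = 0.638, 0.357, 0.29 and 0.779).

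Genes of the shoot meristem and of organ boundaries had a higher effect at 10 d in 6 of 13 members and a lower one in none, beside 7.64% and 6.62% of all genes. Their median day changes were 0.84 on ET and -0.54 on E0. *CUC1* (AT3G15170), for a NAC factor of organ boundaries, measured 5.13, 5.66 and 7.68 CPM on E0 at 5 d, 5.42, 2.41 and 4.46 CPM at 10 d, 11.3, 8.18 and 9.08 CPM on ET at 5 d and 52.2, 66.7 and 59.3 CPM at 10 d. ET at 10 d lay above every other library, and the day change was 2.64 on ET and -0.54 (adjusted p = 0.213) on E0 (difference 3.18 ± 0.40, adjusted p = 0.00013). *STM*, the homeobox gene that maintains the meristem, likewise rose on ET, by 2.05 (difference 2.57 ± 0.54). *CUC2* fell on E0 by 1.93, with 0.88 (adjusted p = 0.117) on ET, and *CUC3* moved in both media and turned from -1.62 to 0.91. *CYP78A5* (AT1G13710), a cytochrome P450 gene of meristem boundaries that was chosen after its values were seen, as the DEG with the smallest p, measured 24.8, 27.3 and 31.5 CPM on E0 at 5 d, 6.73, 6.89 and 6.18 CPM at 10 d, 19.0, 14.7 and 23.5 CPM on ET at 5 d and 74.7, 103 and 58.9 CPM at 10 d. Its 4 groups were separate, with day changes of -2.08 on E0 and 2.04 on ET (difference 4.12 ± 0.31, adjusted p = 4.29e-06).

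In the *WOX* family of homeobox genes, 5 of 13 members had a higher effect at 10 d and 1 a lower one, beside 7.64% and 6.62% of all genes. On E0 alone, 4 of these 6 DEGs moved. *WOX11*, known from the founding of root primordia, fell on E0 by 1.77, with 0.39 (adjusted p = 0.213) on ET (difference 2.16 ± 0.32, adjusted p = 0.000413). *WOX9*, which acts in early embryos, fell on E0 by 1.62 (difference 1.49 ± 0.38, adjusted p = 0.0142). *WOX2*, of the apical cells of the early embryo, measured 1.19, 0.809 and 0.878 CPM on E0 at 5 d, 0.268, 0.201 and 0.475 CPM at 10 d, 0.0239, 0.215 and 0.163 CPM on ET at 5 d and 2.19, 2.03 and 1.87 CPM at 10 d. ET at 10 d was above all other libraries at these low levels, and the effect turned from -3.12 to 2.58 (difference 5.70 ± 0.76, adjusted p = 0.000197). ET 5 d a and b lay below the floor of their library, so these sizes rest on few counts. *WUS*, the stem cell regulator, passed the test (adjusted p = 0.0214), and its adjusted p was 0.393 without library E0 5 d a. Of 7 genes of the AINTEGUMENTA-like group, 2 had a higher effect, beside 7.64% of all genes, among them *PLT1*, which rose on ET by 1.43 (difference 1.68 ± 0.26, adjusted p = 0.000574).

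Called auxin genes are given by family, beside 7.64% of all genes with a higher effect at 10 d and 6.62% with a lower one. Whether the counts of a family differ from these shares was not tested. Of 18 *ARF* genes, for the auxin response factors, 0 were called by edgeR or by DESeq2 and 3 had an unadjusted p under 0.05, with a median difference of 0.06. Of 7 *PIN* genes, for auxin efflux carriers, 1 had a higher effect, and 0 without library E0 5 d b, E0 10 d c, ET 10 d a or ET 10 d c, and 2 without ET 5 d c. *GH3* genes encode enzymes that conjugate auxin and related acids to amino acids, and 6 of 10 had a higher effect, with 5 DEGs of the family moving on ET alone, whereas the member with a lower one was *PBS3*, given above for SA. *GH3.2* (AT4G37390) measured 15.4, 13.7 and 14.0 CPM on E0 at 5 d, 26.3, 14.1 and 26.0 CPM at 10 d, 5.36, 4.09 and 5.40 CPM on ET at 5 d and 48.7, 52.9 and 58 CPM at 10 d. ET was below E0 at 5 d and above it at 10 d with no overlap (difference 2.78 ± 0.31, adjusted p = 4.97e-05). *GH3.1* and *DFL1* were higher on ET on both days and rose there by 1.82 and 1.37. Of 28 *Aux/IAA* repressor genes, 9 had a higher effect and 1, *IAA34*, a lower one, with 3 of the DEGs moving in opposite directions, such as *IAA1* (E0 -0.87, ET 1.05) and *IAA14* (E0 -1.12, ET 1.95).

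Of 16 genes of auxin synthesis, 4 had a higher effect and none a lower one, beside 7.64% and 6.62% of all genes. However, 2 were lower with the DESeq2 Wald test, 2 without library ET 5 d a and 1 without ET 5 d c. *TAA1* (AT1G70560), for the aminotransferase that makes indole-3-pyruvate from tryptophan, measured 18.9, 15.5 and 16.9 CPM on E0 at 5 d, 10.5, 9.97 and 13.6 CPM at 10 d, 21.8, 24.7 and 43.1 CPM on ET at 5 d and 69.8, 72.3 and 66.9 CPM at 10 d. The groups did not overlap, and ET moved by 1.22 against -0.59 (adjusted p = 0.101) on E0 (difference 1.81 ± 0.34, adjusted p = 0.00206). *YUC3*, for a flavin monooxygenase of the next step, turned from -1.58 to 0.62 (adjusted p of the difference 0.000132).

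Type-A *ARR* genes, cytokinin-induced response regulators, had a higher effect in 3 of 10 members, beside 7.64% of all genes. *ARR16* (AT2G40670) measured 1.52, 2.12 and 1.76 CPM on E0 at 5 d, 1.90, 1.94 and 2.17 CPM at 10 d, 2.06, 1.18 and 2.28 CPM on ET at 5 d and 23.7, 13.2 and 16.4 CPM at 10 d. ET at 10 d was above the other 3 groups, which overlapped (difference 3.03 ± 0.41, adjusted p = 0.000222). *ARR9* was lower on ET on both days, at -1.93 and -0.62, as it rose on ET by 1.22 (difference 1.31 ± 0.18, adjusted p = 0.000268). Its exons overlap a gene on the other strand over 10.0% of their length.

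Genes whose direction turned are shown by the 3 with the smallest adjusted p among the 6 chosen for the size of both effects. *ESM1* (AT3G14210), known for its role in the breakdown of glucosinolates, measured 0.547, 0.202 and 0.658 CPM on E0 at 5 d, 28.1, 27.0 and 43.5 CPM at 10 d, 3.23, 5.38 and 7.73 CPM on ET at 5 d and 2.46, 1.19 and 1.65 CPM at 10 d. The groups were separate, and its effect went from 3.47 to -4.26, mainly by a rise of 6.06 on E0, while 20.8% of its exon 50-mers occur elsewhere in the genome. *GSTF2* (AT4G02520), a glutathione S-transferase gene, measured 17.2, 28.7 and 24.4 CPM on E0 at 5 d, 77.2, 82.6 and 93.8 CPM at 10 d, 117, 186 and 49.7 CPM on ET at 5 d and 10.6, 9.88 and 8.84 CPM at 10 d. ET was the higher medium at 5 d and the lower one at 10 d, both without overlap, though a gene on the other strand covers 60.5% of its exons.

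*AT2G23230*, for a protein of the terpenoid cyclase superfamily, went from lower to higher on ET. It measured 15.8, 12.4 and 19.4 CPM on E0 at 5 d, 2.98, 0.736 and 1.78 CPM at 10 d, 0.623, 0.538 and 0.325 CPM on ET at 5 d and 7.76, 7.19 and 17.2 CPM at 10 d. It fell on E0 by 3.06 and rose on ET by 4.46 (difference 7.52 ± 0.66, adjusted p = 7.74e-06), so that ET at 10 d overlapped E0 at 5 d. Of the genes that moved on E0 alone, *AT3G55240*, for a protein of unknown function, measured 13.0, 16.1 and 19.0 CPM on E0 at 5 d, 2.55, 0.535 and 1.97 CPM at 10 d, 25.3, 20.2 and 25.7 CPM on ET at 5 d and 39.7, 44.0 and 36.6 CPM at 10 d. Its E0 libraries at 10 d were below the other 3 groups (difference 3.91 ± 0.43, adjusted p = 4.52e-05). *FRO2*, for the ferric reductase of root iron uptake, moved on ET alone, from 1.53, 2.47 and 2.25 CPM at 5 d to 14.2, 16.2 and 12 CPM at 10 d, and measured 6.77 to 13.6 CPM on E0 (difference 3.08 ± 0.33, adjusted p = 3.71e-05).

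**Figure D5:**
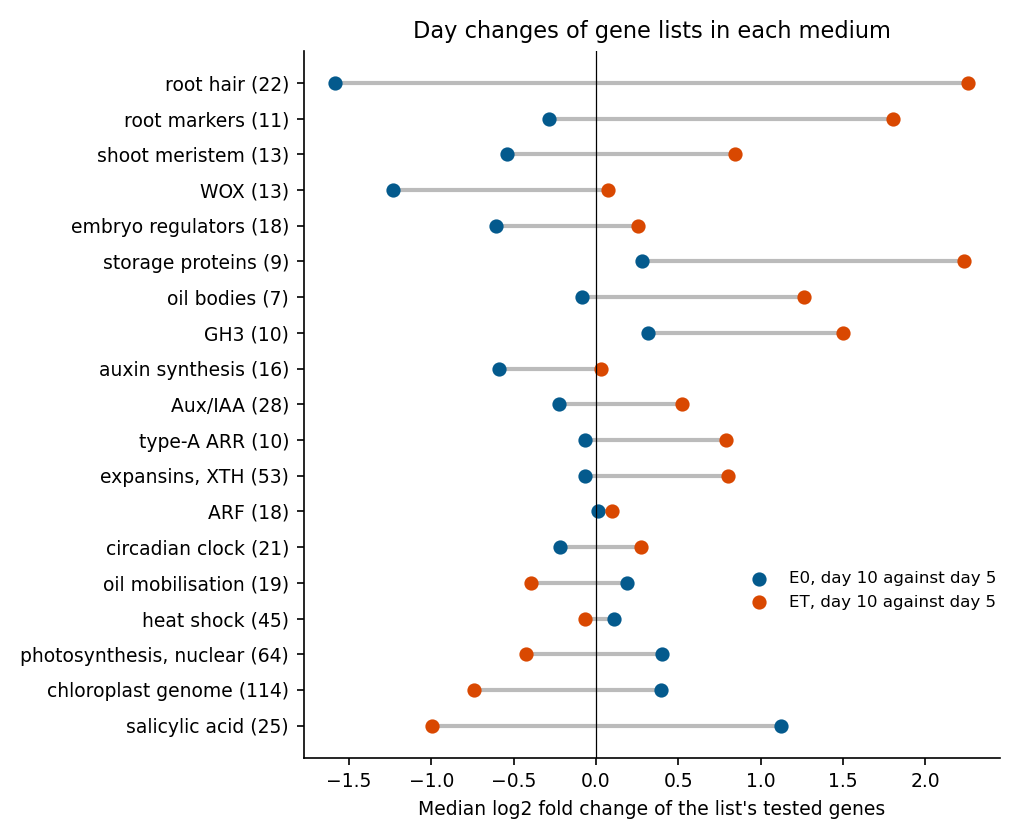
For 19 gene lists, with the number of tested genes in parentheses, points give the median log2 fold change from 5 d to 10 d on E0 (blue) and on ET (orange), joined by a line. Root hair genes have medians of -1.58 and 2.26 and genes of SA 1.12 and -0.99, whereas storage protein genes moved mainly on ET, at 2.23 against 0.28.

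Markers of other tissues that an explant could hold were examined in the same way. Of all genes, 7.64% had a higher effect at 10 d and 6.62% a lower one. Root markers share members such as *GL2* and *WER* with the root hair list, and the green seedling marker *RCA* was given above with photosynthesis. The counts of these marker sets are therefore not separate from the results above. Of 10 tested endosperm markers 1 was lower, and their summed level was 17.4 to 25.5 CPM on E0 at 5 d, 32.6 to 34 CPM at 10 d, 94.6 to 321 CPM on ET at 5 d and 152 to 197 CPM at 10 d. Of 10 seed coat markers 1 was higher and 2 were lower (0 or 1 without any single library), with summed levels of 97.8 to 147 CPM over the 12 libraries, and of 6 pollen and tapetum markers 1 was higher, with summed levels of 4.18 to 30.2 CPM. Of 8 markers of green seedlings 3 were lower, with summed levels of 2010 to 2691 CPM on E0 at 5 d, 2169 to 3689 CPM at 10 d, 3778 to 9493 CPM on ET at 5 d and 3754 to 5005 CPM at 10 d. Of 11 root markers 5 had a higher effect at 10 d and none a lower one, with a median TSA effect of -4.47 at 5 d and -2.35 at 10 d and a median difference of 1.86, or 0.86 with the gene at the floor set to it. Their summed levels were 360.4 to 423.8 CPM on E0 at 5 d, 328.3 to 361.6 CPM at 10 d, 128.2 to 234.0 CPM on ET at 5 d and 176.7 to 219.4 CPM at 10 d, and the count of 5 was 1 to 3 without E0 5 d a, b or c, E0 10 d a, b or c, ET 5 d a or c, or ET 10 d a or c. The part of these tissues in the results was not tested. TSA inhibits the zinc-dependent histone deacetylases. Of 15 tested histone deacetylase genes of any type, 2 had a lower effect at 10 d, beside 6.62% of all genes. This count was 1 without library E0 5 d c or ET 10 d a.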

How the data were processed

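The deposited values were raw counts per gene, which the authors made from Illumina reads of rRNA-depleted total RNA by trimming, removal of remaining rRNA reads with SortMeRNA, alignment with STAR to TAIR10 and counting of uniquely mapped reads per gene. The strand setting is not given in the sources used here. All 18 libraries entered one fit, with 1 mean for each combination of medium and day, in edgeR 4.0.16 (limma 3.58.1, R 4.3.3) with TMM scaling, filterByExpr and the quasi-likelihood test, and Benjamini-Hochberg adjustment over the 23539 genes tested of 34218, of which 3927 had no count. CPM values use the scaled library sizes, and log2 fold changes are those of the fit, with 3 libraries per group. A group was at the floor for a gene when each of its libraries held at most 3 counts, and "at least" folds were computed against that floor. Scripts were tested on simulated data. There, 9 of 100 planted differences of 1 on the log2 scale were called, and 74 of 100 planted differences of 2. A gene that did not pass the test can therefore still differ between the days. Libraries were biological replicates according to the study's methods. Alternatives were DESeq2 1.42.0, other scalings and filters, a replicate block, thinned counts, a fold threshold, removal of organelle genes, fitting E0 and ET alone, and leaving out each library. Floors cover counting error only, and SEs are those of the fit over the libraries.

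The members and gene lists were chosen with earlier results of these data known. Some named genes came from the DEGs with at least 10 CPM in the highest of the 4 groups. They were the 6 largest per direction that moved on ET alone or on E0 alone with days that did not overlap, the 3 largest per direction that moved in opposite directions, the 4 with the smallest p in each list, *AGL15* and *ABI3*, and the 6 turned genes with the largest smaller effect. *CYP78A5*, the extensins and the other list members given beyond this rule (such as *RSL2*, *RSL4*, *EDS1*, *CBP60G*, *ICS2*, *PRK*, *STM*, *NF-YB6*, *DFL1*, *WUS*, and members that did not pass the test) were chosen after their values were seen. Sequences came from the RefSeq annotation of TAIR10.1, and exon overlaps from the same build.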

Additional observations from a re-analysis of the deposited data

Results flagged for a closer look

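The TSA effect differed between the days by the test of the difference itself, with 1798 genes higher and 1558 lower at 10 d. Of the genes with called effects of opposite sign on the days, the 6 with the largest smaller effect were *ESM1* (difference -7.73 on the log2 scale), *ACD6* (-9.91), *RBCS1B* (-6.25, with 17.4% of its exon 50-mers elsewhere in the genome), *CYP71A12* (-5.16), *AT2G23230* (7.52) and *GSTF2* (-5.45). The value of *ACD6* depends on the prior count, since it was at the floor on E0 at 5 d, where ET was at least 50.7-fold higher. At 10 d its means were 0.578 CPM on E0 and 0.0562 CPM on ET, near the floor. The opposite sign at 10 d (adjusted p = 0.0271, edgeR) therefore also rests on few counts. Of all counts in library ET 5 d c, 3.37% lay on structural RNA genes, above the other 11 libraries compared. The part of this in the results was not tested.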

How the results depend on the processing

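The count of 3356 genes lay between 2370 and 3202 when single libraries were left out, and the values for its classes were 815 to 1337 (ET alone), 707 to 1180 (E0 alone), 253 to 433 (both, opposite), 47 to 102 (both, same direction), 320 to 506 and 229 to 330 (effect at 10 d alone, higher and lower), 97 to 159 (both days, larger) and 402 to 631 (both days, smaller). Tested against a log2 difference of 1 with glmTreat, 854 genes were called, 512 higher and 342 lower. With the DESeq2 Wald test, 4170 were called, and 162 moved in both media in the same direction. The remaining alternatives called 2612 to 3479 genes. No followed gene changed direction under any alternative, though the order of ET alone and E0 alone did, as given above. The balance of higher and lower members also changed in some gene lists. Seed coat markers, with 1 higher and 2 lower in the main fit, had 3 higher and 1 lower with the DESeq2 Wald test. Of 244 called genes followed, 158 were called in every alternative other than glmTreat. With a replicate block, 3422 genes were called. Whether libraries with the same letter share a batch is not given in the sources used here. Their deviations correlated at -0.21 to 0.31, over 0.1 in 5 of 18 pairs, and 4 of 12 libraries were most like their own letter. These values cannot decide whether the letters mark batches. Depth limits genes near the floor of 0.0509 to 0.329 CPM.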
